A study of Homo sapiens with 8 samples.

Results

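Interferon-stimulated genes are the genes that cells switch on when interferon tells them that a virus may be near. The set described here held 42 of them, chosen by name as widely used members of the response. The choice was made with earlier results of these data known, so the list is not independent of the values below. Of the 42, 41 had a probe set with a single gene symbol on the array. STAT2 had none in the annotation used here. Each gene was read from its probe set with the highest mean over the 8 arrays, the measured genes numbered 18244 in all, and 38 members were among the 11926 genes tested, those whose value exceeded the array's median on 2 or more of the arrays. HERC5, RSAD2 and CMPK2 did not pass that filter. The 38 that passed are described below by function: RNA sensors and helicases, oligoadenylate synthetases, IFIT proteins, the ISG15 conjugation system, PARP9, PARP14 and DTX3L, transcription factors, antiviral GTPases and other effectors, membrane and secreted proteins, and a remaining group.

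The study compared 2 human lung adenocarcinoma cell lines, 2 ways of growing them and treatment with the EGFR inhibitor gefitinib, with 1 array for each of the 8 combinations and no replicate of any of them. A549 carries no activating EGFR mutation according to its label, and HCC827 carries one. Each EGFR state is represented by 1 line, so line and mutation cannot be told apart. The 2D cultures grew from 200000 cells in dishes of 21 square centimetres for 7 days, and the 3D cultures from 100000 cells on a collagen scaffold, without flow, for 14 days. Gefitinib was given at 1 µM, in the 3D cultures over the last 3 days, from day 11; the controls received no inhibitor. RNA came from the scaffolds after bead lysis with a micro kit and from the dishes with a mini kit, so culture, days in culture, cell number and kit cannot be told apart.

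Type I interferons act through a receptor made of IFNAR1 and IFNAR2, and type III interferons through IFNLR1 and IL10RB. The kinases JAK1 and TYK2 on these receptors activate STAT proteins, and STAT2 with its partners, IRF9 among them, forms a complex called ISGF3 that binds the interferon-stimulated response element, or ISRE, in the promoters of its targets. The products sense viral RNA, degrade it, block translation or entry, or tag proteins with ISG15. Many tumour cell lines express part of this set without added interferon, and no interferon was given in this study.

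The promoters of the set share a short sequence. RefSeq windows from 250 bases before to 50 bases after a gene's start (GRCh38.p14) were at hand for 35 members, and 24 of them, 68.6%, held the ISRE core on either strand (GAAA, any 2 bases, then GAAA), against 4.38% of the windows of all 27305 genes. The core of the related GAS element (TTC, any 3 bases, then GAA), which overlaps the ISRE core in some of these promoters, was present on either strand in 13 members, 37.1%, against 9.38% of all genes. The following stretches, on the gene's own strand and before its start, come from members with large differences between the lines or between the cultures in the values below; capitals mark the ISRE core, which reads TTTC, 2 bases, TTTC where it lies on the other strand.
IFI27, chr14:94110613-94110652, plus strand: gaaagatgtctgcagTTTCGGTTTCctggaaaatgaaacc
IFI44, chr1:78649756-78649788, plus strand: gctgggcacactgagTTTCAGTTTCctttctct
ISG15, chr1:1013375-1013414, plus strand: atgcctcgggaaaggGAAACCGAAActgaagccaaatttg
BST2, chr19:17405736-17405775, minus strand: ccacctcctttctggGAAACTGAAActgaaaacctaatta
GBP1, chr1:89065311-89065350, minus strand: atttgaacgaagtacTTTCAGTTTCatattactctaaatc
DDX60, chr4:168318781-168318820, minus strand: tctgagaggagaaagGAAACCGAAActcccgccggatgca
IFIT1, chr10:89392505-89392544, plus strand: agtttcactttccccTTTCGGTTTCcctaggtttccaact
EPSTI1, chr13:42992267-42992306, minus strand: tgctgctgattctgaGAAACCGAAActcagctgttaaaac
IFI6, chr1:27672283-27672322, minus strand: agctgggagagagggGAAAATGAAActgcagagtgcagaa
The windows of PARP9 and DTX3L, 2 neighbours on opposite strands of chromosome 3 whose products work as a pair, shared a single match (chr3:122564332-122564341). Several members are close relatives in 1 place: IFIT1, IFIT2, IFIT3 and IFIT5 lie on chromosome 10, OAS1, OAS2 and OAS3 on chromosome 12, with their relative OASL farther along it, MX1 and MX2 on chromosome 21, and SAMD9 and SAMD9L on chromosome 7. They are therefore not independent of each other, and related probe sets may read some of the same RNA. The core was not in these windows for CMPK2, HERC6, IFI35, IRF1, IRF9, OAS1, SAMD9L, SP110, STAT2, UBE2L6 and XAF1.

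The values are log2 intensities; each array's median over its probe sets lay between 7.27 and 7.34. The means of the 4 combinations of line and culture were compared with limma, with the control and the gefitinib array of a combination as its 2 arrays, so that the spread behind each p holds the gefitinib difference and no biological replicate. Errors are standard errors of that fit, and p-values were adjusted over the 11926 genes tested. The array's own controls differed between the cultures: the 3' minus 5' difference of the beta-actin control probe sets was 2.10 ± 0.47 (SD, n = 4) in 3D against -0.10 ± 0.04 (n = 4) in 2D, and that of GAPDH 0.91 ± 0.48 against -0.02 ± 0.02. Each difference gave p = 0.0286 in a two-sided exact permutation test, the smallest that 4 arrays against 4 allow, and 0.0286 after adjustment over both. All 6 epithelial markers stood above the array median on all 8 arrays, while the fibroblast genes COL1A2, COL3A1, DCN and PDGFRA and the leukocyte genes PTPRC, CD3E, MS4A1 and CLEC4C, the last a marker of plasmacytoid dendritic cells, stood above it on none. Of the whole lists, 0 to 2 of 6 fibroblast, 0 to 2 of 4 endothelial and 1 to 2 of 6 leukocyte markers stood above the median on an array. Of these markers the fibroblast gene LUM read between 5.83 and 7.66 in A549, 9.93 and 8.47 in HCC827 2D and 6.28 and 7.37 in HCC827 3D. Its line difference was 1.41 ± 0.37 (adjusted p = 0.0126). The leukocyte gene CD14 went the other way between the lines, -1.64 ± 0.08 (adjusted p = 2.31e-06). The part of these genes' cell types in the line results was not tested. The 2D arrays of HCC827 went against their treatment labels: DUSP6, a target of the ERK pathway that EGFR drives, gave a gefitinib minus control difference of 3.64 in 2D and -3.32 in 3D, and ETV5, a second such target, 2.52 and -1.79. These 2 are called here the array labelled control and the array labelled gefitinib, and the fit of the 4 means does not depend on which is which.

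**Figure D1:**
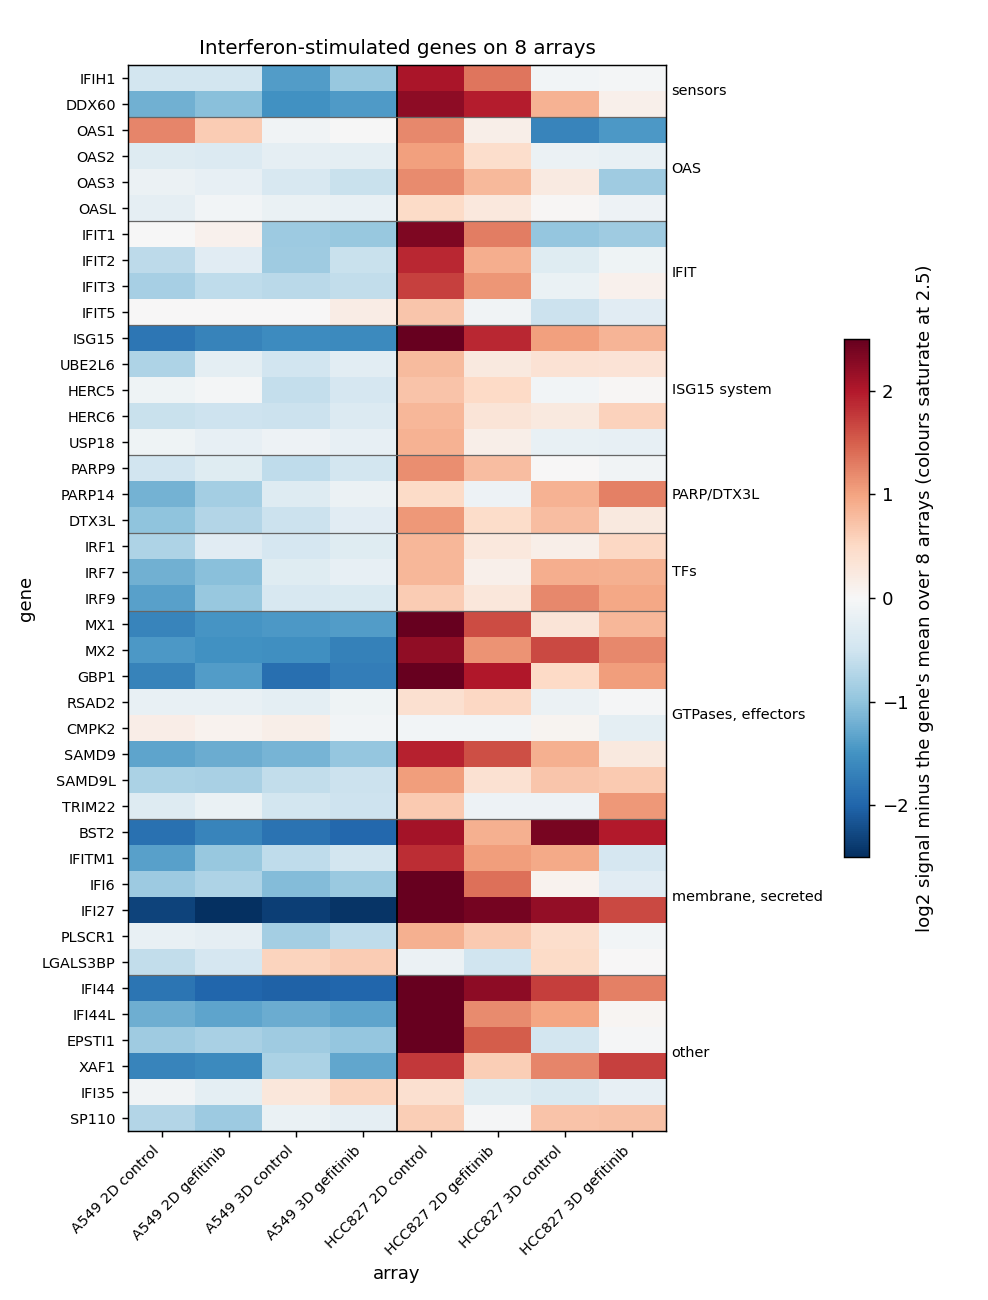
Log2 intensity of each of the 41 measured members on each of the 8 arrays minus that gene's mean over the 8 arrays, with members in rows by function and arrays in columns by line, culture and treatment; red is above the mean and blue below. The columns of HCC827, most of all the 2D array labelled control, stand higher than those of A549 for most rows.

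Most of the set was higher in HCC827 than in A549. Of the 38 members tested, 33 were higher and 1, OAS1, was lower at an adjusted p under 0.05, where 25.9% of all genes tested were higher and 29.4% lower. The count is not free of the filter: 11 of the 38 passed it through HCC827 arrays alone and so had to read higher there. They were BST2, EPSTI1, GBP1, IFI27, IFI44, IFI44L, IFIH1, MX1, MX2, SAMD9L and TRIM22, and all 11 were among the 33. Of the other 27 members, 22 were higher and 1 was lower. XAF1, one of the 22, stood above the median in A549 on the 3D control array only, so it too needed HCC827 arrays to pass. The following values take in those 11 and XAF1 as well. The median difference over the 38 members was 1.33 on the log2 scale, against -0.03 over all genes. At 2-fold or more, 23 members were called higher (7.57% of all genes) and 0 lower (8.55%). On 29 members every HCC827 array stood above every A549 array, as on 14.4% of all genes. Leaving out any 1 array kept 30 of the 34 calls; those of OAS1, OAS3, OASL and TRIM22 were lost without 1 or more of the arrays. On an array of a whole culture, fewer cells that express a gene and less of its RNA per cell cannot be told apart.

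In A549, 14 of the 41 measured members stood at or below the array median on all 4 arrays: BST2, CMPK2, EPSTI1, GBP1, HERC5, IFI27, IFI44, IFI44L, IFIH1, MX1, MX2, RSAD2, SAMD9L and TRIM22. Counted array by array, 24 to 26 members were above the median in A549 and 36 to 39 in HCC827. The share of all genes above the median on each array is not given here. Of the 18244 genes measured, 11926 passed the filter, which uses the same median. The A549 counts therefore do not show whether the set was low there compared with other genes.

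**Figure D2:**
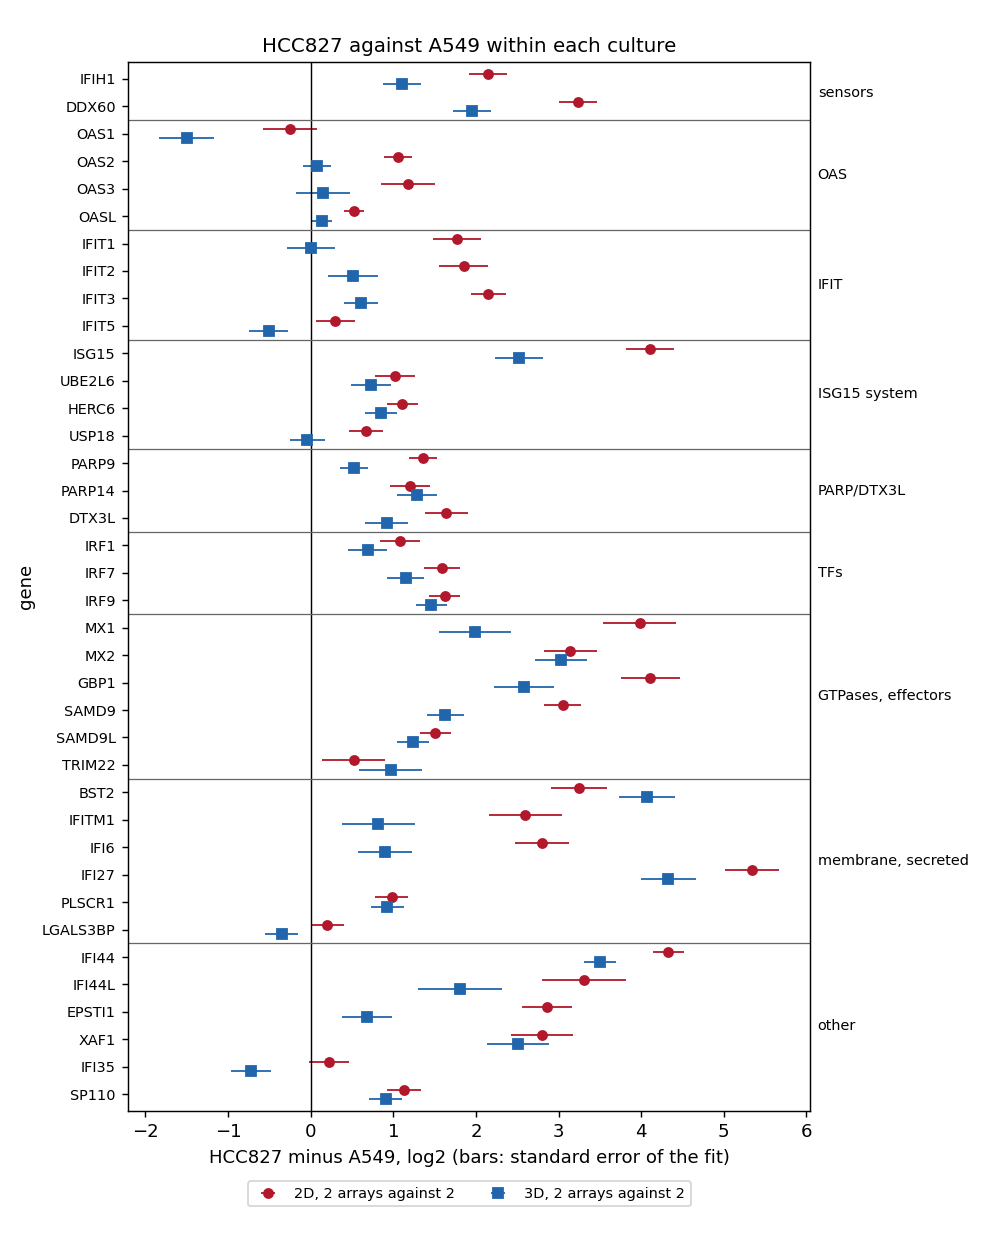
HCC827 minus A549 for each of the 38 members tested, in 2D and in 3D, in log2 units with the standard error of the fit. Most points lie right of 0 in both cultures, IFI27 and BST2 lie farthest right in 3D, and the lowest 3D points are those of OAS1, IFI35, IFIT5 and LGALS3BP.

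The sensors were both higher in HCC827. IFIH1, also called MDA5, recognises long double-stranded RNA in the cytosol, and DDX60 is a helicase linked to the same sensing route. In the order control then gefitinib, IFIH1 read 7.03 and 7.03 in A549 2D, 6.10 and 6.54 in A549 3D, 9.54 and 8.82 in HCC827 2D, and 7.43 and 7.44 in HCC827 3D. DDX60 read 7.32 and 7.48 in A549 2D, 7.02 and 7.11 in A549 3D, 10.76 and 10.50 in HCC827 2D, and 9.39 and 8.65 in HCC827 3D. Every HCC827 value of both genes was above every A549 value; the line difference was 1.63 ± 0.17 (adjusted p = 1.25e-04) for IFIH1 and 2.59 ± 0.16 (adjusted p = 1.15e-05) for DDX60.

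The oligoadenylate synthetases OAS1, OAS2 and OAS3 make the short oligoadenylates that activate RNase L, and OASL is their relative. The family did not move as a block: 3 of the 4 were higher in HCC827 and OAS1 was lower. OAS1 read 10.29 and 9.71 in A549 2D, 8.99 and 9.07 in A549 3D, 10.28 and 9.22 in HCC827 2D, and 7.43 and 7.64 in HCC827 3D. The lines overlapped in 2D, and in 3D both HCC827 arrays were below both of A549, with differences of -0.25 ± 0.33 (adjusted p = 0.595) and -1.50 ± 0.33 (adjusted p = 0.00849); the overall call, -0.87 ± 0.24 (adjusted p = 0.0151), was lost without the A549 2D control array or the A549 3D gefitinib array, with 0.0602 as the largest adjusted p. OAS3 read 9.58 and 9.52 in A549 2D, 9.32 and 9.18 in A549 3D, 10.91 and 10.54 in HCC827 2D, and 9.95 and 8.84 in HCC827 3D, and its difference of 0.66 ± 0.23 (adjusted p = 0.0409) was lost without any 1 of 5 arrays. OAS2 and OASL were higher by 0.57 ± 0.12 (adjusted p = 0.00555) and 0.33 ± 0.09 (adjusted p = 0.0142).

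The IFIT proteins bind viral RNA and stop its translation. IFIT1, IFIT2 and IFIT3 were higher in HCC827, and IFIT5 was not called, at -0.10 ± 0.17 (adjusted p = 0.633). IFIT3 read 7.91 and 8.12 in A549 2D, 8.07 and 8.14 in A549 3D, 10.46 and 9.86 in HCC827 2D, and 8.58 and 8.85 in HCC827 3D, with a difference of 1.38 ± 0.15 (adjusted p = 1.63e-04). IFIT2 read 7.70 and 8.07 in A549 2D, 7.46 and 7.79 in A549 3D, 10.22 and 9.25 in HCC827 2D, and 8.04 and 8.23 in HCC827 3D, with a difference of 1.18 ± 0.21 (adjusted p = 0.00238). IFIT5 read 7.86 and 7.86 in A549 2D, 7.87 and 8.05 in A549 3D, 8.56 and 7.77 in HCC827 2D, and 7.33 and 7.58 in HCC827 3D; its 2D array labelled control in HCC827 was the highest of the 8. IFIT1 differed between the lines by 1.77 ± 0.29 (adjusted p = 0.00257) in 2D and by 0.0 ± 0.29 (adjusted p = 0.997) in 3D; the interaction, the difference between these, did not pass, at -1.77 ± 0.41 (adjusted p = 0.0869). In 3D the IFIT1 values of both lines were below the array median.

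ISG15, the ubiquitin-like protein that the system attaches to its targets, had one of the large line differences of the set, 3.32 ± 0.21 (adjusted p = 1.03e-05). ISG15 read 7.99 and 8.13 in A549 2D, 8.22 and 8.20 in A549 3D, 12.67 and 11.67 in HCC827 2D, and 10.82 and 10.64 in HCC827 3D, and the lowest HCC827 array was well above the highest A549 array. UBE2L6, the conjugating enzyme, was higher by 0.87 ± 0.17 (adjusted p = 0.00302), and HERC6, a ligase of the HERC family, by 0.98 ± 0.14 (adjusted p = 6.06e-04). HERC6 read 7.71 and 7.76 in A549 2D, 7.74 and 7.93 in A549 3D, 9.10 and 8.59 in HCC827 2D, and 8.52 and 8.85 in HCC827 3D, with no overlap between the lines. USP18, the protease that removes ISG15 and restrains signalling at the receptor, was called in 2D, 0.67 ± 0.21 (adjusted p = 0.0387), a call that was lost without any 1 of 5 arrays (largest adjusted p = 0.171), and not over all arrays, 0.32 ± 0.15 (adjusted p = 0.107). HERC5, the main ligase for ISG15, read between 6.19 and 6.74 in A549 and between 6.71 and 7.51 in HCC827 and was not tested.

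PARP9 and DTX3L act together as a ligase complex, and PARP14 is a mono-ADP-ribosyltransferase; all 3 were higher in HCC827. DTX3L read 8.99 and 9.25 in A549 2D, 9.45 and 9.70 in A549 3D, 11.07 and 10.45 in HCC827 2D, and 10.76 and 10.23 in HCC827 3D, with a difference of 1.28 ± 0.18 (adjusted p = 7.14e-04). PARP14 read 9.23 and 9.55 in A549 2D, 10.09 and 10.27 in A549 3D, 10.89 and 10.29 in HCC827 2D, and 11.27 and 11.67 in HCC827 3D, with a difference of 1.25 ± 0.17 (adjusted p = 5.53e-04). PARP9 differed by 0.94 ± 0.12 (adjusted p = 3.54e-04). In 2D and in 3D alike, every HCC827 array of these genes was above both A549 arrays of that culture.

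The transcription factors were all higher in HCC827. IRF9, the DNA-binding part of ISGF3, read 9.18 and 9.59 in A549 2D, 10.15 and 10.17 in A549 3D, 11.18 and 10.82 in HCC827 2D, and 11.74 and 11.50 in HCC827 3D. IRF7, which amplifies the production of interferon, read 8.20 and 8.35 in A549 2D, 9.09 and 9.19 in A549 3D, 10.22 and 9.51 in HCC827 2D, and 10.30 and 10.28 in HCC827 3D. Neither gene's values overlapped between the lines, and the differences were 1.54 ± 0.14 (adjusted p = 6.46e-05) and 1.37 ± 0.15 (adjusted p = 2.12e-04). IRF1, an activator induced most strongly by interferon gamma, differed by 0.88 ± 0.17 (adjusted p = 0.0033).

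All 6 GTPases and other effectors tested were higher in HCC827. GBP1, a guanylate-binding protein that coats intracellular pathogens, read 6.84 and 7.13 in A549 2D, 6.63 and 6.78 in A549 3D, 11.68 and 10.51 in HCC827 2D, and 9.01 and 9.56 in HCC827 3D. MX2, a dynamin-like GTPase that restricts HIV and herpesviruses, read 6.56 and 6.49 in A549 2D, 6.47 and 6.30 in A549 3D, 10.21 and 9.12 in HCC827 2D, and 9.64 and 9.20 in HCC827 3D. Its relative MX1, which restricts influenza virus, read 6.19 and 6.37 in A549 2D, 6.41 and 6.45 in A549 3D, 11.05 and 9.47 in HCC827 2D, and 8.16 and 8.68 in HCC827 3D. The A549 values of these 3 genes stayed below the array median and those of HCC827 above it, with differences of 3.34 ± 0.25 (adjusted p = 2.81e-05), 3.08 ± 0.23 (adjusted p = 2.40e-05) and 2.98 ± 0.31 (adjusted p = 1.43e-04). SAMD9 and SAMD9L, which restrict poxviruses, were higher by 2.34 ± 0.15 (adjusted p = 1.37e-05) and 1.38 ± 0.14 (adjusted p = 1.04e-04). TRIM22 was higher by 0.74 ± 0.27 (adjusted p = 0.0484), a call that was lost without any 1 of 6 arrays. RSAD2 and CMPK2, neighbours that are induced together in many cells, were not tested. The chosen probe set of each was between 6.39 and 7.29 on all 8 arrays. Another CMPK2 probe set read 8.09 and 7.66 in HCC827 2D and between 5.71 and 6.32 on the other 6 arrays.

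Among the membrane and secreted proteins, 5 of 6 were higher in HCC827, and they held the largest line difference of the set. IFI27, a small mitochondrial membrane protein, read 7.27 and 7.02 in A549 2D, 7.22 and 7.13 in A549 3D, 13 and 11.98 in HCC827 2D, and 11.78 and 11.23 in HCC827 3D, a difference of 4.84 ± 0.23 (adjusted p = 2.86e-06). BST2, or tetherin, which holds budding virus at the cell surface, read 6.69 and 6.90 in A549 2D, 6.70 and 6.60 in A549 3D, 10.64 and 9.45 in HCC827 2D, and 10.92 and 10.53 in HCC827 3D, a difference of 3.66 ± 0.24 (adjusted p = 1.42e-05). Both were at or below the array median on every A549 array and above it on every HCC827 array. IFITM1, which blocks fusion of viral and cell membranes, read 8.85 and 9.27 in A549 2D, 9.57 and 9.75 in A549 3D, 12.05 and 11.26 in HCC827 2D, and 11.16 and 9.79 in HCC827 3D, and IFI6 read 8.34 and 8.47 in A549 2D, 8.17 and 8.32 in A549 3D, 11.78 and 10.63 in HCC827 2D, and 9.33 and 8.97 in HCC827 3D. They were higher by 1.71 ± 0.31 (adjusted p = 0.00242) and 1.85 ± 0.24 (adjusted p = 3.96e-04), and PLSCR1, a scramblase of membrane lipids, by 0.96 ± 0.14 (adjusted p = 7.76e-04). LGALS3BP, a secreted glycoprotein, was the exception: it read 11.55 and 11.75 in A549 2D, 12.72 and 12.81 in A549 3D, 12.03 and 11.68 in HCC827 2D, and 12.66 and 12.18 in HCC827 3D, and its difference was -0.07 ± 0.14 (adjusted p = 0.695).

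In the remaining group, 5 of 6 were higher in HCC827. IFI44 read 6.61 and 6.45 in A549 2D, 6.42 and 6.45 in A549 3D, 11.04 and 10.68 in HCC827 2D, and 10.17 and 9.70 in HCC827 3D, and its line difference of 3.91 ± 0.13 (adjusted p = 5.26e-07) had the smallest p of the set. XAF1, an antagonist of the apoptosis inhibitor XIAP, read 6.82 and 6.88 in A549 2D, 7.68 and 7.17 in A549 3D, 10.23 and 9.07 in HCC827 2D, and 9.68 and 10.18 in HCC827 3D, a difference of 2.65 ± 0.26 (adjusted p = 9.98e-05). IFI44L, EPSTI1 and the nuclear body protein SP110 were higher by 2.56 ± 0.36 (adjusted p = 6.65e-04), 1.77 ± 0.21 (adjusted p = 2.64e-04) and 1.02 ± 0.14 (adjusted p = 5.99e-04). IFI35 read 9.41 and 9.25 in A549 2D, 9.78 and 10.06 in A549 3D, 9.91 and 9.19 in HCC827 2D, and 9.11 and 9.29 in HCC827 3D and was not called, at -0.25 ± 0.17 (adjusted p = 0.249); the 3D arrays alone gave -0.72 ± 0.24 (adjusted p = 0.0412), which was lost without any 1 of 6 arrays.

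Taken culture by culture, 33 members were higher and 0 lower in 2D, with a median of 1.63, and 23 were higher and 2 lower, OAS1 and IFI35, in 3D, with a median of 0.91. Over all genes, 19.2% were higher and 19.3% lower in 2D, and 19% higher and 26.3% lower in 3D. At 2-fold or more, 30 members were called higher and 0 lower in 2D (7.48% and 7.76% of all genes), and 16 higher and 1 lower in 3D (7.96% and 10.6%). These counts and medians take in the 11 members that passed the filter through HCC827 arrays alone, so they are not free of the filter either. The 3D count was the less firm: 14 of its 25 calls stayed whichever array was left out, against 27 of 33 in 2D, and without the A549 3D control array 15 members were higher. BST2, IFI27, IFI44, MX2, GBP1, ISG15 and XAF1 were between 2.51 and 4.33 higher in HCC827 in 3D, with 4.07 ± 0.34 (adjusted p = 8.68e-05) for BST2 and 4.33 ± 0.33 (adjusted p = 5.43e-05) for IFI27. Of these, BST2, IFI27, IFI44, MX2 and GBP1 belong to the 11. XAF1 does not, but it too needed HCC827 arrays to pass the filter. ISG15 stood above the array median on all arrays. In the IFIT and oligoadenylate synthetase families, IFIT3 was called higher in 3D, 0.61 ± 0.21 (adjusted p = 0.0455), a call lost without any 1 of 5 arrays, and OAS1 lower.

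In HCC827 most members were lower in 3D than in 2D. At an adjusted p under 0.05, 22 of the 38 fell and 2, PARP14 and IRF9, rose, where 17.7% of all genes fell and 25.8% rose. The median was -0.81 against 0.08 over all genes, 30 members were below 0 (43.1% of all genes), and 15 were called at 2-fold or more lower (5.93%) and 0 higher (7.45%). On 23 members both 3D arrays were below both 2D arrays, as on 27.2% of all genes. These counts are not free of the filter. IFIT1 stood above the array median on 2D arrays alone. EPSTI1 stood above it on both HCC827 2D arrays and the HCC827 3D gefitinib array. Without 2D arrays neither would have been tested. Of the 22 falls, 14 stayed whichever array was left out; those of OAS3, OASL, IFIT5, USP18, MX1, IFI27, PLSCR1 and IFI44L did not. The counts changed with the array left out. Without the 2D array labelled control, which read highest for much of the set, the median was -0.47. Without the 2D array labelled gefitinib it was -1.10. With the spread taken from the HCC827 arrays alone, 13 members fell and 0 rose. The share of all genes called in that fit is not given here. The fibroblast marker LUM fell alongside, -2.37 ± 0.52 (adjusted p = 0.00854). COL1A1, the other fibroblast marker tested, was called higher in 3D, at 0.50. Both endothelial markers tested were called higher too, at 0.43 and 0.61. The summed level of the fibroblast list of 6 over the array median was between -2.99 and -1.28 in 2D. In 3D that sum was between -4.52 and -3.03. The part of LUM and the other markers in the fall of the members was not tested.

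**Figure D3:**
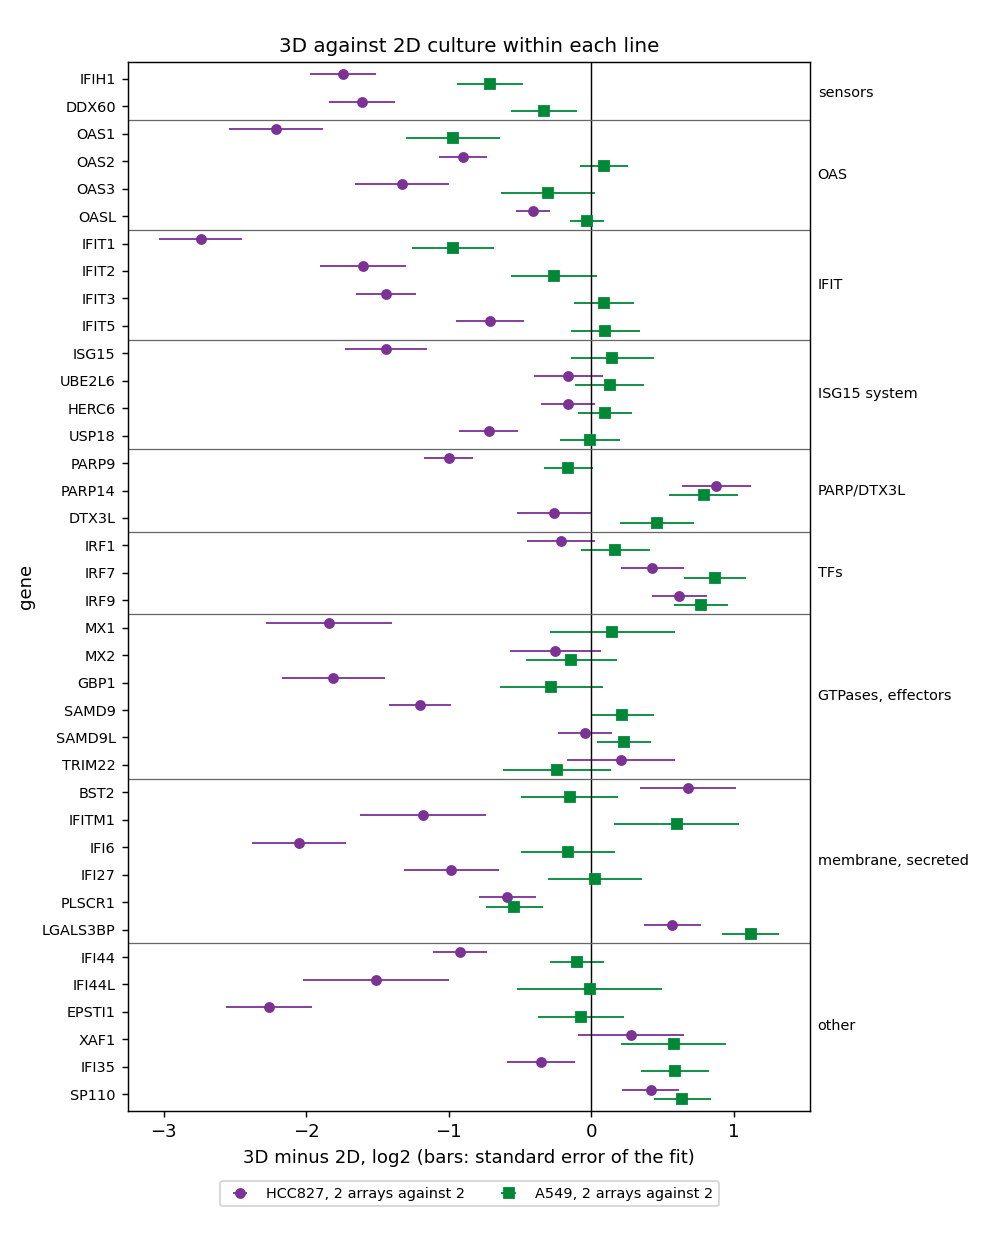
3D minus 2D for each of the 38 members tested, in HCC827 and in A549, in log2 units with the standard error of the fit. The HCC827 points of the sensors, the oligoadenylate synthetases and the IFIT family all lie left of 0, with IFIT1 farthest left at -2.74, while PARP14, IRF7, IRF9 and LGALS3BP lie right of 0 in both lines.

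The fall in HCC827 ran through the RNA-binding families. Both sensors fell, IFIH1 by 1.74 ± 0.23 (adjusted p = 0.00127) and DDX60 by 1.61 ± 0.23 (adjusted p = 0.00165). All 4 genes of the oligoadenylate synthetase family fell, with -2.21 ± 0.33 (adjusted p = 0.00197) for OAS1, -1.33 ± 0.33 (adjusted p = 0.0139) for OAS3 and -0.90 ± 0.17 (adjusted p = 0.00537) for OAS2. All 4 IFIT genes fell. IFIT1 read 7.97 and 8.09 in A549 2D, 7.08 and 7.04 in A549 3D, 10.32 and 9.27 in HCC827 2D, and 7.02 and 7.10 in HCC827 3D, the largest fall of the set at -2.74 ± 0.29 (adjusted p = 5.79e-04); both HCC827 3D arrays were below every 2D array of either line. The 3D values of IFIT1 were below the array median in both lines, so its fall is not free of the filter. IFIT2 and IFIT3 gave -1.60 ± 0.30 (adjusted p = 0.00487) and -1.44 ± 0.21 (adjusted p = 0.00168).

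ISG15 fell in HCC827, -1.44 ± 0.29 (adjusted p = 0.00628), and USP18, which read 7.73 and 7.63 in A549 2D, 7.71 and 7.63 in A549 3D, 8.71 and 7.99 in HCC827 2D, and 7.65 and 7.63 in HCC827 3D, gave -0.72 ± 0.21 (adjusted p = 0.0276), a call that was lost without any 1 of 7 arrays. UBE2L6 and HERC6 were not called, at -0.16 ± 0.24 (adjusted p = 0.611) and -0.16 ± 0.19 (adjusted p = 0.532). PARP9 read 8.74 and 8.91 in A549 2D, 8.57 and 8.75 in A549 3D, 10.38 and 9.98 in HCC827 2D, and 9.23 and 9.13 in HCC827 3D and fell, -1.0 ± 0.17 (adjusted p = 0.00283), while PARP14 rose, 0.88 ± 0.24 (adjusted p = 0.021), and DTX3L was not called, at -0.26 ± 0.26 (adjusted p = 0.442). Among the transcription factors IRF9 rose, 0.62 ± 0.19 (adjusted p = 0.0363), and IRF7 and IRF1 were not called, at 0.43 ± 0.22 (adjusted p = 0.153) and -0.21 ± 0.24 (adjusted p = 0.519).

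MX1, GBP1 and SAMD9 fell, by 1.84 ± 0.44 (adjusted p = 0.0126), 1.81 ± 0.36 (adjusted p = 0.00589) and 1.20 ± 0.22 (adjusted p = 0.00416). MX2, SAMD9L and TRIM22 were not called, with -0.25 ± 0.32 (adjusted p = 0.569) for MX2. Another probe set of MX2 gave -1.49. IFI6 fell, -2.05 ± 0.33 (adjusted p = 0.00263), and so did IFI27, -0.98 ± 0.33 (adjusted p = 0.0438), and PLSCR1, -0.59 ± 0.20 (adjusted p = 0.0436); IFITM1 was not called, at -1.18 ± 0.44 (adjusted p = 0.0636). BST2 gave 0.68 ± 0.34 (adjusted p = 0.149) and LGALS3BP 0.57 ± 0.20 (adjusted p = 0.054). In the remaining group EPSTI1 fell, and read 6.60 and 6.68 in A549 2D, 6.60 and 6.53 in A549 3D, 10 and 9.0 in HCC827 2D, and 7.03 and 7.46 in HCC827 3D, a difference of -2.26 ± 0.30 (adjusted p = 0.00116). IFI44L read 6.67 and 6.56 in A549 2D, 6.64 and 6.56 in A549 3D, 10.77 and 9.07 in HCC827 2D, and 8.88 and 7.94 in HCC827 3D, a difference of -1.51 ± 0.51 (adjusted p = 0.0455) that was lost without any 1 of 6 arrays, and IFI44 gave -0.92 ± 0.19 (adjusted p = 0.00621). XAF1, SP110 and IFI35 were not called.

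In A549 the members went both ways with culture. Of the 38, 5 rose, PARP14, IRF7, IRF9, LGALS3BP and SP110, and 1 fell, IFIT1, against 24.2% and 10.1% of all genes; the median was 0.06, with 20 members above 0 and 18 below, where 37.6% of all genes were below. LGALS3BP had the largest rise, 1.12 ± 0.20 (adjusted p = 0.00563), IFIT1 gave -0.97 ± 0.29 (adjusted p = 0.0362), and IRF7 and IRF9 gave 0.87 ± 0.22 (adjusted p = 0.02) and 0.77 ± 0.19 (adjusted p = 0.0197). None of these 6 calls stayed whichever array was left out: without the A549 2D control array, 0 members rose, and without any 1 of the 4 A549 arrays the fall of IFIT1 was lost. With the spread taken from the A549 arrays alone, 10 members rose and 8 fell. The share of all genes called in that fit is not given here. IFIT1 passed the filter through 2D arrays alone, so its fall in A549 is not free of the filter either. Beside IFIT1, the most negative A549 values were those of OAS1 and IFIH1, at -0.97 ± 0.33 (adjusted p = 0.0587) and -0.71 ± 0.23 (adjusted p = 0.052), short of the threshold.

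The difference between the lines in their 3D minus 2D change was tested as an interaction. At an adjusted p under 0.05 by limma, 0 of the 38 members passed, as 0.822% of all genes did in the higher and 0.864% in the lower direction; at an unadjusted p under 0.05, 19 members passed, all with the more negative value in HCC827, where 16.9% of all genes passed in either direction. The median was -0.83 against -0.08 over all genes, and 35 members were below 0, as were 58.7% of all genes. For 8 members both pairs of A549 arrays went up and both of HCC827 went down with 3D culture, as for 4.8% of all genes. The members nearest the threshold were EPSTI1, -2.18 ± 0.42 (adjusted p = 0.0526), and IFIT3, -1.53 ± 0.30 (adjusted p = 0.053), followed by SAMD9, -1.42 ± 0.31 (adjusted p = 0.0733), and IFIT1, -1.77 ± 0.41 (adjusted p = 0.0869). Of these, EPSTI1 and IFIT1 needed 2D arrays to pass the filter. The count of members passing changed with the array left out. The median was -1.14 without the HCC827 2D array labelled gefitinib and -0.54 without its partner labelled control. The members were also read in 2 sets by their A549 level, a division made after their values were seen. The 24 that stood above the array median on all 4 A549 arrays had a median change of 0.12 in A549 and -0.65 in HCC827; the other 14 had -0.12 and -1.25.

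This measure of RNA integrity moved alongside these values. The 3' minus 5' difference of the actin control rose with 3D culture by 1.80 in A549 and 2.59 in HCC827, and that of GAPDH by 0.58 and 1.28, so it moved in both lines, with the larger values in HCC827; its part in the fall of the members was not tested. The probe sets of a member were also set side by side. Their places along its RNA were not compared, and probe sets of 1 gene are not independent of each other. Of the 91 member probe sets that passed the filter, 77 had a lower mean in HCC827 3D than in 2D, with a median of -0.72, against 53.1% of all 28846 such probe sets and a median of -0.05. Of the 53 that were not the one chosen for their gene, 47 were lower. In A549, 50 of the 91 were lower, against 48% of all. In 15 of the 23 members with several such probe sets all were lower in HCC827 3D, in 7 they had both signs (BST2, IRF9, PARP14, PARP9, SAMD9L, SP110 and XAF1), and in TRIM22 all were higher. The share of all genes whose probe sets had 1 sign was not counted.

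**Figure D4:**
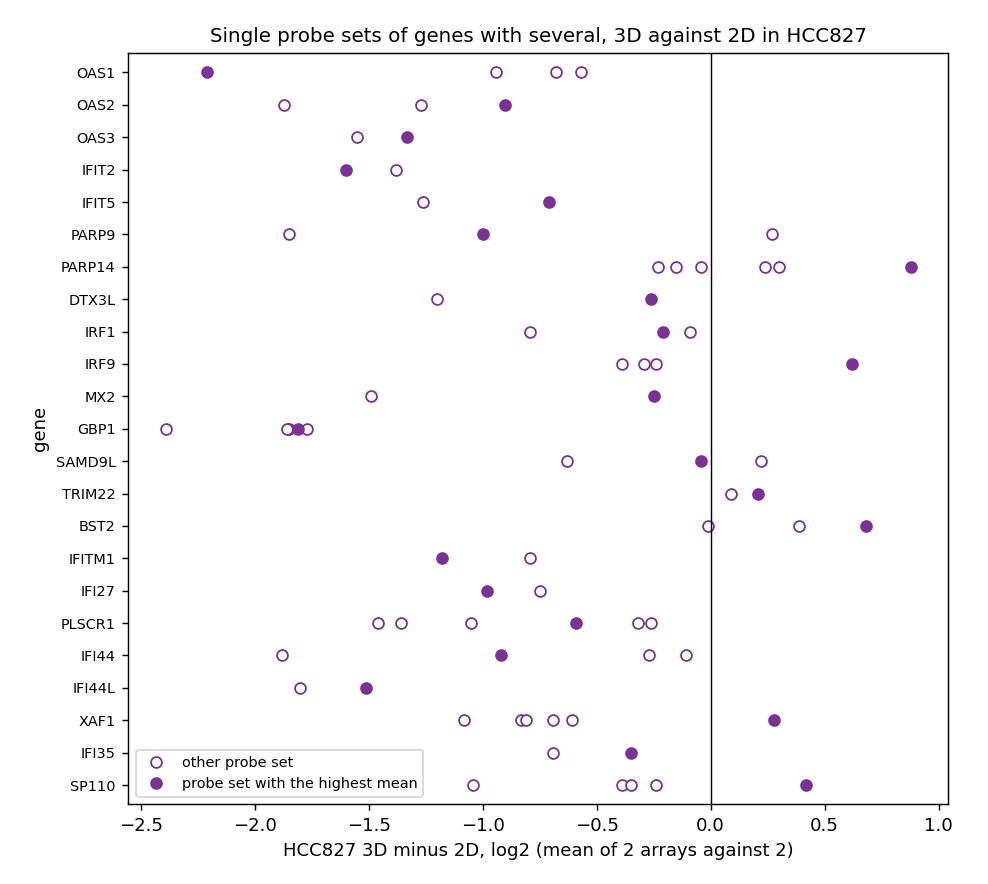
3D minus 2D in HCC827, in log2 units, for the probe sets that passed the filter in the 23 members with several, with the probe set of the highest mean filled and the others open. Most probe sets lie below 0, and those of IRF9, XAF1 and SP110 other than the chosen one lie below 0 while the chosen one lies above.

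The values of IRF9 and PARP14 in HCC827 differed between their probe sets. The chosen probe set of IRF9 gave 0.62, and its others gave -0.24, -0.39 and -0.29; averaging all 4 gave -0.07 (adjusted p = 0.73). PARP14 gave 0.88 on the chosen probe set and between -0.23 and 0.30 on the others. Members that were not called differed too. MX2 gave -0.25 on the chosen probe set and -1.49 on the other, which was below the array median in 3D. DTX3L gave -0.26 on the chosen probe set and -1.20 on another that passed the filter. When the probe sets of a gene were averaged, 0 members rose. The line differences were above 0 on all probe sets that passed the filter in 20 of the 23 members, below 0 on all in 2, and of both signs in IFIT5. Here too the share of all genes was not counted.

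Gefitinib left the set within 2-fold in A549. From control to gefitinib, the 38 members lay between -0.58 and 0.53 in 2D and between -0.50 and 0.45 in 3D, with medians of 0.13 and 0.08, and none reached 2-fold. Of all genes tested, 0.00839% were at least 2-fold higher in each culture, and 0.0168% in 2D and 0% in 3D were at least 2-fold lower. With both cultures in 1 fit (limma, 1 residual degree of freedom), 0 members passed an adjusted p of 0.05, as 0.0168% of all genes did, and 7 passed an unadjusted p of 0.05, all higher, against 12.3% of all genes in either direction. The median of that fit was 0.09, against 0.04 over all genes.

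In HCC827 each culture had 1 array against 1, and the gefitinib differences were not tested. In 2D all 38 members were lower on the array labelled gefitinib, where 58.2% of all genes were lower. The differences ran from -1.70 for IFI44L to -0.22 for OASL, with a median of -0.71, and 12 members were at least 2-fold lower and 0 higher, against 1.62% and 2.36% of all genes. The largest after IFI44L were MX1 at -1.58, BST2 at -1.19, GBP1 at -1.17, XAF1 at -1.16 and IFI6 at -1.15. In 3D the members went both ways: 16 were higher and 22 lower, where 64.9% of all genes were lower, and the median was -0.04. TRIM22 was 1.21 higher, and OAS3 and IFITM1 were at least 2-fold lower, at -1.11 and -1.37; 0.797% of all genes were at least 2-fold higher and 3.15% lower.

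**Figure D5:**
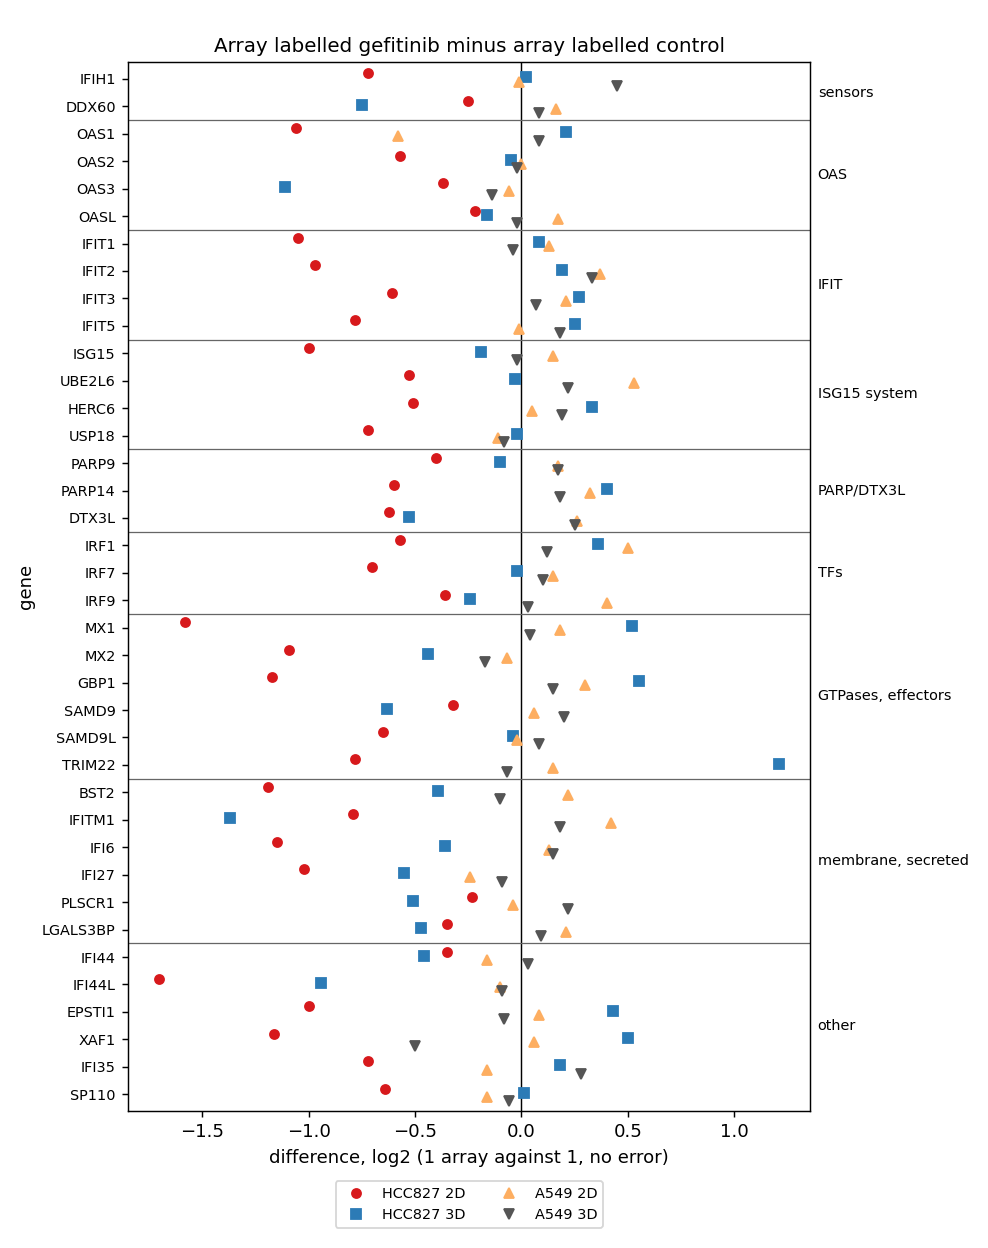
Gefitinib minus control for each of the 38 members tested in each of the 4 pairs of arrays, in log2 units, 1 array against 1. The A549 points all stay within 2-fold, and the HCC827 2D points all lie below 0 as labelled.

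The direction in HCC827 2D is that of the labels, which the ERK-pathway genes of the same pair go against. If the labels of that pair were exchanged, every one of these 38 values would keep its size and turn its sign; the data do not settle which is right. The chemokines CXCL10 and CXCL11, targets of interferon that are no members, were above the array median on 1 array each, the HCC827 2D array labelled control, at 8.43 and 8.55. As labelled, 24 members were lower with gefitinib in HCC827 2D and higher in A549 2D (36.8% of all genes). Since all 38 were lower in HCC827 2D, the 24 are simply the members above 0 in A549 2D. There 60.8% of all genes were above 0.

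The pathway around the set was read from a list of 65 further genes, of which 59 had a probe set and 43 were tested. Of the 43, 28 were higher and 6 lower in HCC827 than in A549, against 25.9% and 29.4% of all genes. Their median was 0.76, against -0.03 over all genes. The list mixes genes upstream of the set with 25 tested as other interferon-stimulated genes, which are outputs of the response. Those 25 gave 19 of the 28 higher and 2 of the 6 lower. Of the interferons themselves, IFNB1, IFNA2, IFNA5, IFNK, IFNW1, IFNG and IFNL1 were above the array median on none of the 8 arrays, and IFNE, the one ligand tested, was lower in HCC827, -0.43 ± 0.08 (adjusted p = 0.00239). Of the 6 receptor genes IFNLR1, 1.17 ± 0.16 (adjusted p = 5.25e-04), and IFNAR2, 0.76 ± 0.19 (adjusted p = 0.0116), were higher and IFNGR1, a subunit of the interferon gamma receptor, was lower, -0.99 ± 0.14 (adjusted p = 5.92e-04); IFNAR1 gave 0.25 ± 0.14 (adjusted p = 0.177).

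The kinases JAK1 and TYK2 were higher in HCC827, 1.56 ± 0.17 (adjusted p = 1.87e-04) and 1.19 ± 0.11 (adjusted p = 6.42e-05). So were the kinase TBK1, which turns sensing into interferon production, 2.59 ± 0.15 (adjusted p = 6.39e-06), and the sensors RIGI, 1.68 ± 0.10 (adjusted p = 8.68e-06), and DHX58, 1.55 ± 0.11 (adjusted p = 2.24e-05), while the adaptor MAVS was lower, -0.60 ± 0.10 (adjusted p = 0.00171). Of 25 other interferon-stimulated genes 19 were higher and 2 lower, among the higher them IFI16, 2.11 ± 0.19 (adjusted p = 6.75e-05), LAMP3, 2.39 ± 0.24 (adjusted p = 1.14e-04), and GBP2, 1.72 ± 0.20 (adjusted p = 2.51e-04). The neighbours IFITM2 and IFITM3, relatives of IFITM1, went in opposite directions, -3.25 ± 0.16 (adjusted p = 3.46e-06) and 1.62 ± 0.20 (adjusted p = 3.77e-04); members of this family are alike in sequence, and a probe set of one may also bind RNA of another.

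With 3D culture 13 of the 43 genes of this list rose and 9 fell in HCC827, against 25.8% and 17.7% of all genes. In A549, 12 rose and 2 fell, against 24.2% and 10.1%. The 25 other interferon-stimulated genes gave 4 of the rises and 7 of the falls in HCC827, and 5 and 2 in A549. RIGI fell in HCC827 like IFIH1, -0.84 ± 0.14 (adjusted p = 0.00305), and GBP3, a relative of GBP1, gave the 1 interaction of the list that passed, -1.13 ± 0.18 (adjusted p = 0.0301), with -1.66 ± 0.13 (adjusted p = 3.04e-04) in HCC827 and -0.53 ± 0.13 (adjusted p = 0.0158) in A549. Parts of the receptor pathway went the other way: IFNAR2 rose in both lines, 1.52 ± 0.27 (adjusted p = 0.00407) in HCC827 and 1.45 ± 0.27 (adjusted p = 0.00683) in A549, and so did TYK2, 1.61 ± 0.15 (adjusted p = 4.12e-04) and 1.01 ± 0.15 (adjusted p = 0.00279). JAK1 was not called in either line, at 0.05 ± 0.24 (adjusted p = 0.884) and -0.02 ± 0.24 (adjusted p = 0.955).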

How the data were processed

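The authors deposited log2 intensities, 1 value per probe set and array, which the submitters' processing notes list with RMA and R 3.2.1; the array annotation supplied the gene symbols, with 45278 of 49495 probe sets naming 1 symbol and 1333 naming several, which were left out. From these values, differences of the 4 line by culture means were fitted with limma 3.58.1 in R 4.3.3 (variance trend, 4 residual and 3.52 prior degrees of freedom, two-sided, Benjamini-Hochberg over 11926 genes), and gefitinib in A549 with culture and treatment as terms. The fit and its calls were tested on simulated data. Single pairs of arrays had no test and were counted at 2-fold. RMA shares one distribution among the arrays, so a shift of most genes would be removed. Motifs were searched in RefSeq promoter windows. The members and gene lists were chosen with earlier results of these data known. Named genes were, in each function group, the 2 members with the largest line difference, the 2 with the largest 3D difference in HCC827 and those of opposite sign to their group, with values for all arrays; other members were given more briefly. The number of arrays limits the precision. Alternatives covered probe set choice, scaling, the filter, the model and each array left out.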

Additional observations from a re-analysis of the deposited data

Results flagged for a closer look

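Both 3D minus 2D pairs of A549 were above 0 and both pairs of HCC827 below 0 for 8 members, OAS2, IFIT3, IFIT5, ISG15, DTX3L, MX1, SAMD9 and IFITM1, as for 4.8% of all genes. The interaction test of this difference (limma) passed for 0 of the 38 members at an adjusted p under 0.05 and for 19 at an unadjusted p under 0.05.

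In HCC827, 16 members were lower on the array labelled gefitinib in 2D and higher on the gefitinib array in 3D, among them OAS1, IFIT1, IFIT2, IFIT3, MX1, GBP1 and EPSTI1, as were 26.3% of all genes. In 2D, 24 members were lower on the array labelled gefitinib in HCC827 and higher on the gefitinib array in A549, among them ISG15, IFI6, BST2 and the 3 transcription factors tested, as were 36.8% of all genes. All 38 members were lower in the HCC827 2D pair. The 16 are thus the members above 0 in HCC827 3D, as were 35.1% of all genes. The 24 are those above 0 in A549 2D, as were 60.8% of all genes. Neither difference was tested, and with the labels of the HCC827 2D pair exchanged its values would be above 0 for all of these members.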

How the results depend on the processing

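No pairing by replicate was possible because each condition has 1 array and the labels give no replicate numbers. Arrays were matched by culture in the fit of gefitinib in A549, and by treatment in the counts of 3D minus 2D pairs. The fits that leave out 1 array assume that the lone array left in its combination varies like the others, and the fit of gefitinib in A549 could not be made without 1 of its 4 arrays. Apart from leaving out arrays, 162 recomputed counts stayed within 1.5 times the reported ones, and the cause of the changes in the other 28 was not tested. For 3D against 2D in A549, the mean of a gene's probe sets gave 2 members higher and 3 lower, the most variable probe set 6 lower, cyclic loess, no filter and the filter at 4 arrays 2 lower each, the model with 6 coefficients 3 higher and 0 lower, the A549 arrays alone 10 higher and 8 lower, and the fit without both HCC827 2D arrays 3 lower. For HCC827, the mean of the probe sets gave 0 higher, and the HCC827 arrays alone 0 higher and 13 lower. For the interaction, the mean of the probe sets, no filter and the robust prior gave 1 lower each and the most variable probe set 2. For the lines in 3D, the most variable probe set, cyclic loess, median centring and 6 coefficients gave 1 lower each. For gefitinib in HCC827, a 1.5-fold limit gave 25 members lower in 2D and 5 in 3D; in 3D the mean of the probe sets gave 0 higher and 1 lower, and the most variable probe set and cyclic loess 1 lower each.

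With 1 array left out, the lines differed for 30 to 34 members higher and 0 to 3 lower over all arrays, 27 to 35 and 0 to 1 in 2D, and 15 to 28 and 0 to 3 in 3D; the cultures for 0 to 6 higher and 0 to 3 lower in A549, and for 0 to 7 higher and 15 to 24 lower in HCC827; and the interaction for 0 to 1 higher and 0 to 16 lower. Counts with 1 array left out, here and above, are given without the share of all genes called in the same fits. The median changes kept their sign in these fits, from -1.10 to -0.47 for HCC827 culture. Cyclic loess moved the median of all genes by up to 0.108, in the line difference in 3D. Arrays of 1 kind cannot separate a low transcript from background, and 6318 genes were set aside for that reason.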
